A study of Mus musculus with 6 samples.

Results

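The genes described are 32 genes of glycolysis and the hypoxia response, taken by gene symbol from a table of 18158 features. They comprise 4 transporters of glucose and lactate, 20 genes of the glycolytic steps from hexokinase to lactate dehydrogenase, 2 pyruvate dehydrogenase kinases, 4 regulators of the response to low oxygen and 2 of its best known targets. All 32 are in the table, and 31 passed a filter on low values (at least 1 TPM in at least 3 of 6 libraries). The lactate exporter gene Slc16a3 did not pass. RNA came from the ventricles of CD1 mice aged 3 months, an outbred stock. The Paro/Neo group is 3 mice that received the aminoglycoside antibiotics paromomycin and neomycin (150 mg/kg, intraperitoneally, 2 injections per day) over 14 days. The vehicle group is 3 mice that received PBS instead. Each library is 1 mouse, and values are TPM, abundances per unit of transcript length with a common total per library.

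Glycolysis splits glucose into pyruvate, which the heart either reduces to lactate or passes to the mitochondria through pyruvate dehydrogenase, an enzyme that the PDK kinases switch off. The adult heart draws most of its energy from fatty acids and keeps glycolysis as a reserve that gains weight under stress, low oxygen or in the fetus. When oxygen is low, the prolyl hydroxylases of the EGLN family no longer mark the HIF alpha subunits for destruction, and HIF dimers then raise transcription of glucose transporters, glycolytic enzymes, Pdk1, Vegfa and Bnip3 by binding DNA at a short core that includes ACGTG.

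None of the 31 tested genes passed the threshold in Paro/Neo against vehicle hearts (a limma fit of log2(TPM + 1) across all genes, with the Benjamini-Hochberg adjusted p to be under 0.05). Of the 12409 genes tested, 0.137% passed, 0.121% as higher and 0.0161% as lower. Their adjusted p ran from 0.496 for Eno1 to 0.977 for Pgk1. At an unadjusted p under 0.05 there were 4, with Pdk2 higher and Eno1, Eno3 and Egln3 lower, where 7.61% of all tested genes reached that level, 3.24% as higher and 4.37% as lower. The groups did not overlap for 6 of the 31, with Pfkfb3 and Pdk2 higher and Slc2a1, Tpi1, Eno1 and Eno3 lower, against 14.3% of all tested genes, 6.04% higher and 8.22% lower. Out of 31 genes, counts of 4 and 6 are few, and nothing particular to these genes is read from them. Fitted log2 changes were positive for 10 and negative for 21, where 53.7% of all tested genes were negative, with a median of -0.09 beside -0.02 over all tested genes, and they ran from -0.47 for Egln3 to 0.48 for Pfkfb3. The sign of that median depended on 1 heart: without Paro/Neo replicate 1 it was 0.02, with 17 genes higher and 14 lower.

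**Figure D1:**
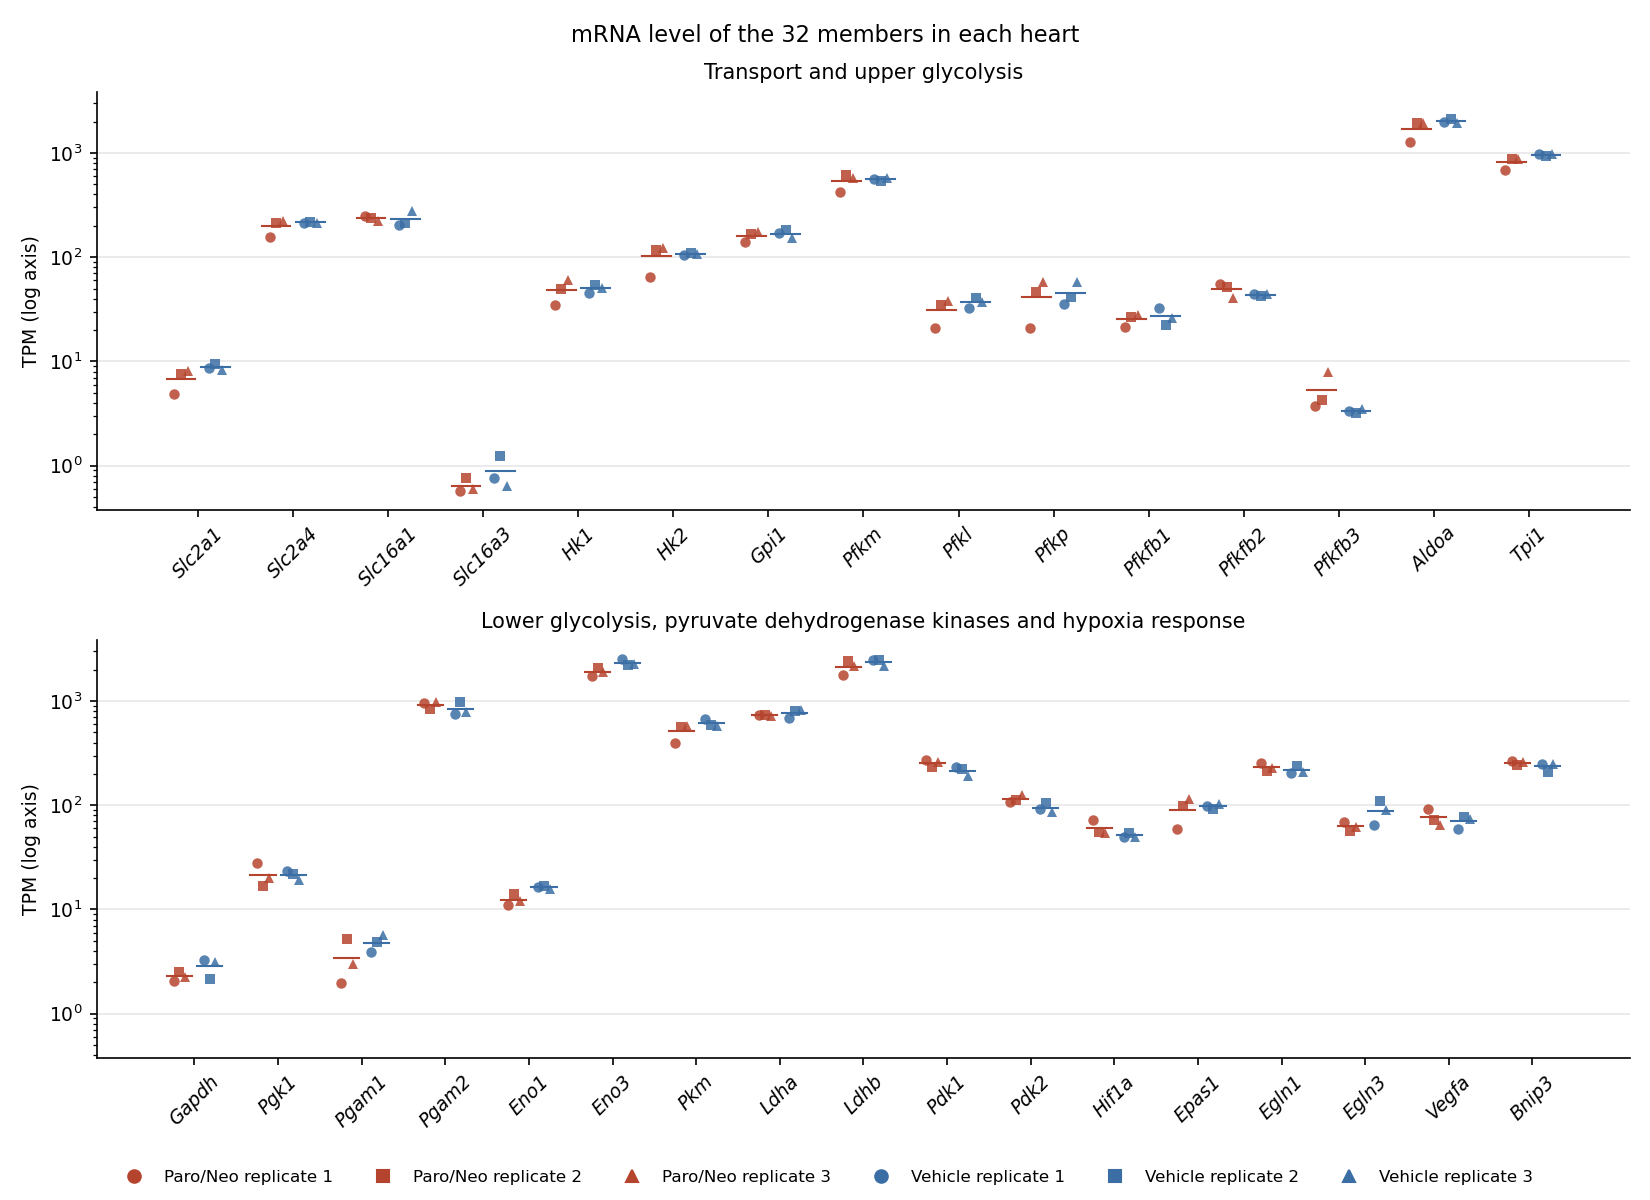
TPM (log axis) of the 32 genes in each heart, Paro/Neo in red and vehicle in blue, with a short line at each group mean (n = 3 each). The circle of Paro/Neo replicate 1 lies below the other hearts for many glycolytic genes, and Gapdh, Pgam1 and Eno1 lie below the other enzymes of the steps themselves, with Pgk1 next to Pfkl and Pfkp.

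The libraries differed in ways that bear on these genes. Inferred from the steps of low TPM values, they held at least 9556387 to 15969980 assigned reads, a range set by vehicle replicates 3 and 1. Paro/Neo replicate 1 was the lowest of the 6 hearts for 19 of the 32 genes and the highest for 7, while over all 12409 tested genes it was the lowest for 32.8% and the highest for 27.1%. The median deviation of the 31 genes from the vehicle mean, on log2(TPM + 1), was -0.33 in that heart and within 0.04 of 0 in the other treated hearts. Deviations of that heart from the gene means ran against the GC content of the transcript, with a Spearman coefficient of -0.396 across the 31 genes and -0.362 across all tested genes with a GC value. In the other 5 hearts the coefficients across the 31 genes were -0.004 and 0.078 in Paro/Neo replicates 2 and 3 and 0.087 to 0.539 in vehicle. The genes share library and base composition, so these coefficients are descriptions, and the part of GC content in any result was not tested beyond the corrected values given below.

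**Figure D2:**
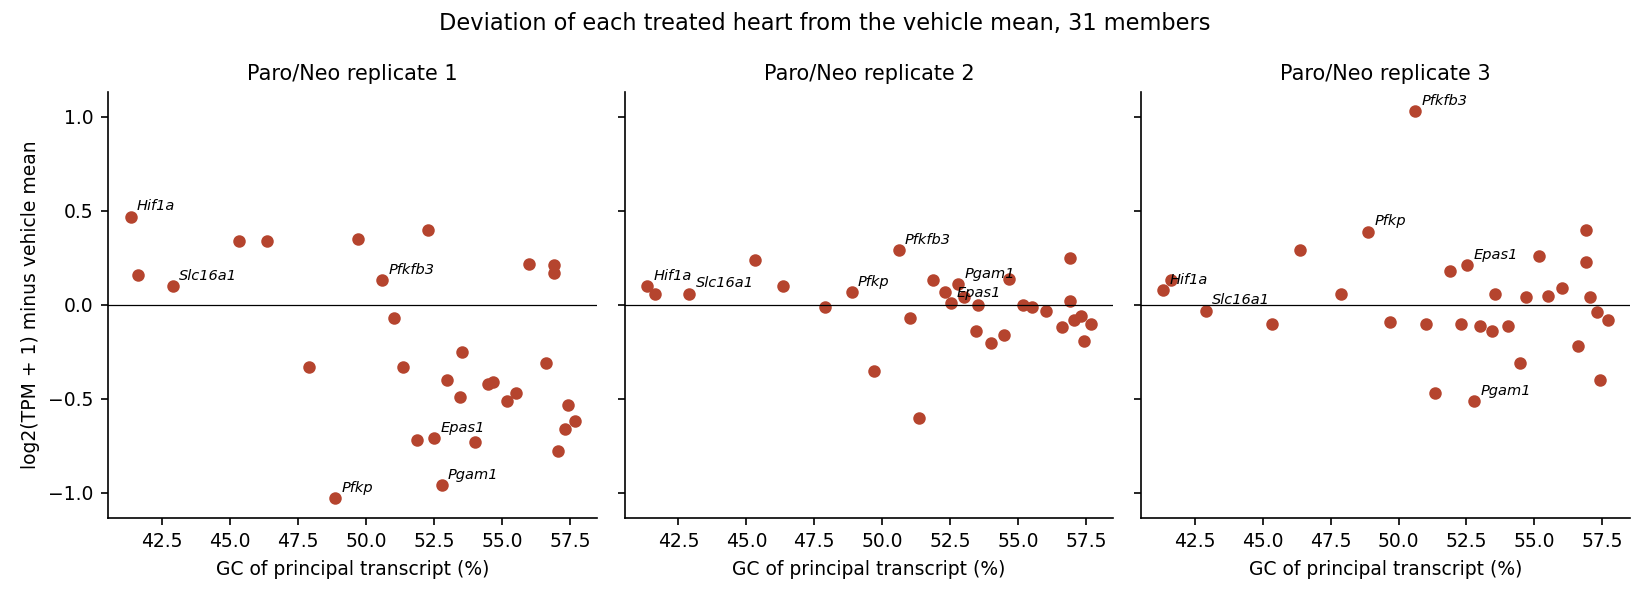
Deviation of each treated heart from the vehicle mean, on log2(TPM + 1), against the GC content (%) of the principal transcript, 1 point for each of the 31 tested genes. In Paro/Neo replicate 1 the GC-poor Hif1a and Slc16a1 lie above 0 and most genes above 50% GC lie below it. Most points of the other treated hearts lie nearer to 0. Among the exceptions are Pfkfb3, at 1.03 in Paro/Neo replicate 3, and Egln3, at -0.6 and -0.47 in Paro/Neo replicates 2 and 3.

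Glucose entry in the heart relies on Slc2a4, which encodes the insulin-responsive transporter GLUT4, and on Slc2a1, which encodes the basal transporter GLUT1. Slc2a4 stood at 156, 215 and 224 TPM in Paro/Neo replicates 1 to 3, against 215, 219 and 215 TPM in vehicle replicates 1 to 3. The vehicle hearts were almost level and Paro/Neo replicate 1 was the low one, with a fitted log2 change of -0.14 ± 0.14 (SE, limma adjusted p 0.816) and of 0.02 ± 0.07 without that heart. Slc2a1 (chromosome 4, 119108711 to 119137983 on GRCm38) stood at 4.9, 7.55 and 8.1 TPM in Paro/Neo hearts, against 8.74, 9.53 and 8.22 TPM in vehicle hearts. All 3 treated hearts lay below all 3 vehicle hearts, the third by a small margin, and the log2 change of -0.35 ± 0.18 did not pass (limma adjusted p 0.699). Without Paro/Neo replicate 1 it was -0.15 ± 0.11 (adjusted p 0.844). The Slc2a1 to Slc2a4 ratio was 0.0315, 0.0351 and 0.0362 in Paro/Neo hearts and 0.0407, 0.0435 and 0.0383 in vehicle hearts, again without overlap. It is a description without a test.

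Slc2a1 is expressed in endothelial cells as well as in muscle. The summed level of 7 endothelial markers was 382, 485 and 516 TPM in Paro/Neo hearts and 510, 583 and 509 TPM in vehicle hearts, and 6 of the 7 had a negative fitted change, none past the threshold. Their part in the Slc2a1 values was not tested, and in these bulk samples fewer cells of a type and less RNA per cell cannot be told apart. Lactate moves through the monocarboxylate transporters. Slc16a1, the one that muscle uses for uptake, was at 247, 240 and 225 TPM in Paro/Neo hearts and 205, 213 and 280 TPM in vehicle hearts, so that the treated hearts lay inside the vehicle range. Slc16a3, the exporter of glycolytic cells, was at 0.576, 0.754 and 0.599 TPM in Paro/Neo hearts and 0.758, 1.25 and 0.631 TPM in vehicle hearts. These levels rest on 8 to 22 reads per library, and a difference in Slc16a3 was not detectable at this depth.

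Hexokinases trap glucose in the cell, and Hk2 is the muscle form while Hk1 is the form most tissues share. Hk2 was at 64.8, 118 and 122 TPM in Paro/Neo hearts and 106, 109 and 108 TPM in vehicle hearts. Paro/Neo replicate 1 was low and the other treated hearts were above all vehicle hearts, so that the log2 change of -0.14 ± 0.22 (limma adjusted p 0.885) became 0.15 ± 0.07 without that heart (adjusted p 0.718). Hk1 was less abundant, at 34.8, 49.9 and 60 TPM in Paro/Neo hearts and 45.2, 54.7 and 50.7 TPM in vehicle hearts. Paro/Neo replicate 1 was again the lowest, while replicate 2 lay inside the vehicle range and replicate 3 above it. Each heart held 1.86 to 2.36 times as much Hk2 as Hk1 mRNA.

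Phosphofructokinase, the committed step of glycolysis, has muscle (Pfkm), liver (Pfkl) and platelet (Pfkp) forms. Pfkm was at 420, 615 and 576 TPM in Paro/Neo hearts and 569, 536 and 572 TPM in vehicle hearts, and it was the leading form in each heart. Pfkp was at 21.1, 46.2 and 57.9 TPM in Paro/Neo hearts and 35.8, 41.1 and 58 TPM in vehicle hearts. Its lowest value was in Paro/Neo replicate 1, and the highest hearts of both groups were level. Pfkl was at 21.1, 34.8 and 37.9 TPM in Paro/Neo hearts and 32.9, 40.9 and 37.4 TPM in vehicle hearts. The fitted log2 changes of Pfkm and Pfkp had the opposite sign without Paro/Neo replicate 1, at 0.09 and 0.23 against -0.08 and -0.19 with it, none of them past the threshold (limma). Gpi1, which makes fructose phosphate, was at 141, 168 and 175 TPM in Paro/Neo hearts and 171, 182 and 153 TPM in vehicle hearts.

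The PFKFB enzymes set the level of the sugar bisphosphate that activates phosphofructokinase. Pfkfb2 is known as the heart form, Pfkfb1 as the liver and muscle form, and Pfkfb3 as an inducible form that responds to low oxygen and inflammatory signals. Pfkfb3 (chromosome 2, 11471433 to 11554077) was at 3.77, 4.3 and 7.89 TPM in Paro/Neo hearts and 3.37, 3.2 and 3.46 TPM in vehicle hearts. Every treated heart was above every vehicle heart, but Paro/Neo replicate 3 stood far above the other treated hearts. The log2 change was 0.48 ± 0.23 and did not pass (limma adjusted p 0.673), with 90 to 270 reads per library behind the values. Without Paro/Neo replicate 3 it was 0.21 (adjusted p 0.637), and without Paro/Neo replicate 1 it was 0.66 (adjusted p 0.555). Pfkfb2 was at 55.7, 51.7 and 40.6 TPM in Paro/Neo hearts and 44.5, 42.6 and 43.9 TPM in vehicle hearts. Pfkfb1 was at 21.2, 26.6 and 28 TPM in Paro/Neo hearts and 32.7, 22.4 and 26.2 TPM in vehicle hearts. The groups overlapped for both.

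Aldolase and triosephosphate isomerase close the upper part of the pathway. Aldoa was at 1272, 1928 and 1950 TPM in Paro/Neo hearts and 2003, 2098 and 1934 TPM in vehicle hearts, with Paro/Neo replicate 1 low and the others at the lower edge of the vehicle range. Tpi1 (chromosome 6, 124810586 to 124814296) was at 686, 878 and 875 TPM in Paro/Neo hearts and 980, 942 and 979 TPM in vehicle hearts. Here all treated hearts lay below all vehicle hearts, with a log2 change of -0.26 ± 0.12 (limma adjusted p 0.663) and of -0.14 ± 0.07 without Paro/Neo replicate 1 (adjusted p 0.735). Of the 11 genes of the upper steps, 9 had negative and 2 positive fitted changes with all hearts, while 3 were negative and 8 positive without Paro/Neo replicate 1.

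**Figure D3:**
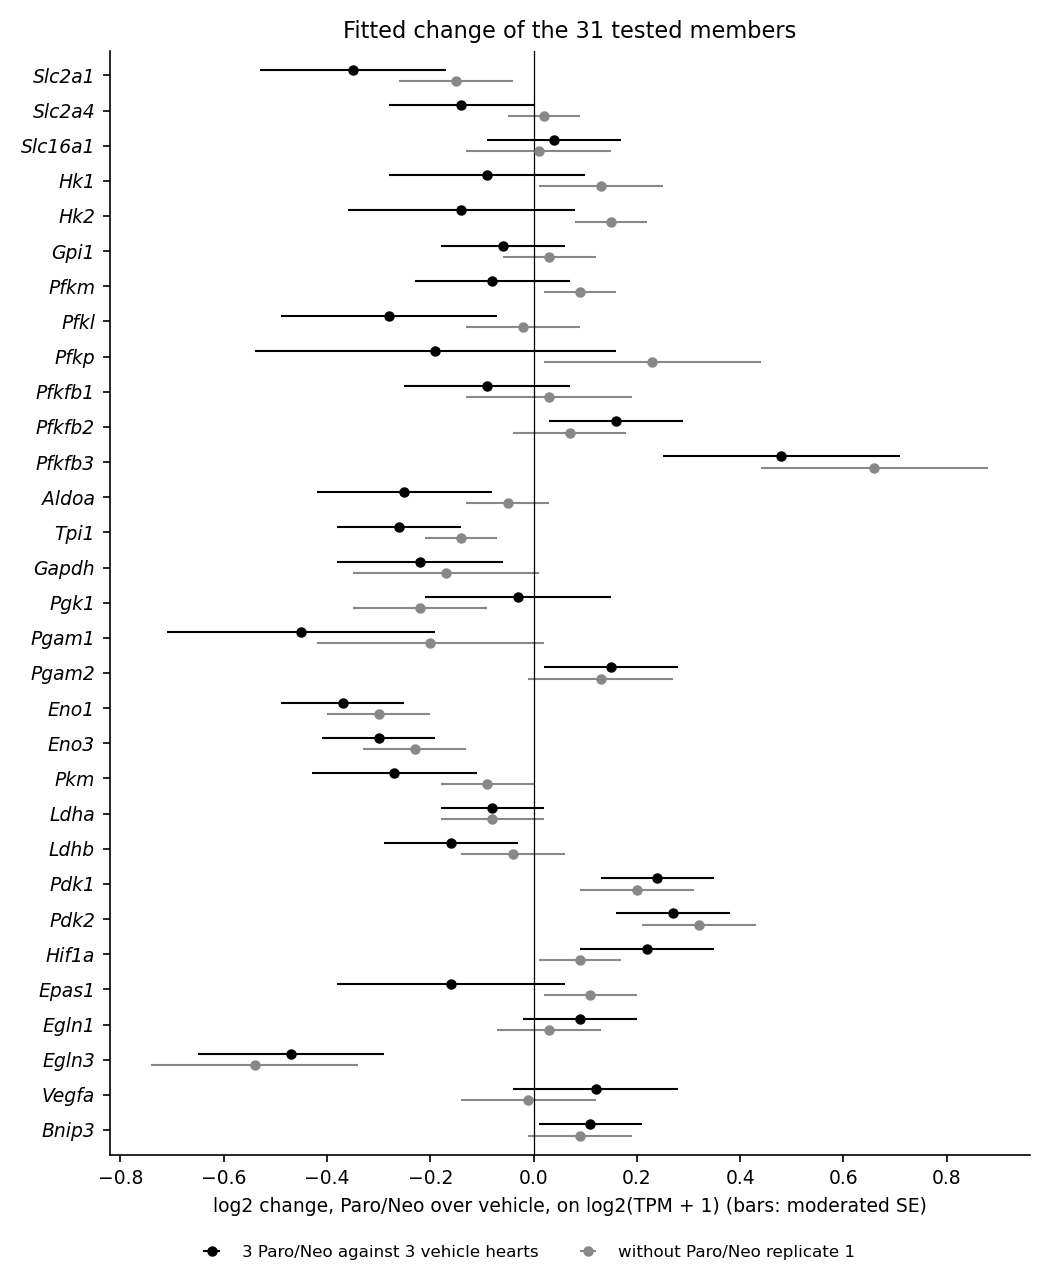
Fitted log2 change of the 31 tested genes, Paro/Neo over vehicle on log2(TPM + 1), with the moderated SE as bars, in black for all 6 hearts and in grey without Paro/Neo replicate 1. The grey points of the upper glycolytic genes, other than Pfkfb2, lie to the right of the black ones, while Eno1, Eno3, Egln3, Pdk1 and Pdk2 keep their side.

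The lower steps, from glyceraldehyde phosphate to lactate, had 8 negative fitted changes and 1 positive one among 9 genes, and the same count without Paro/Neo replicate 1. Their median log2 change was -0.22 with all hearts and -0.17 without that heart. Both medians are the values of Gapdh, on 22 to 40 reads per library. Gapdh, Pgk1, Pgam1 and Eno1 are among the 9, and their levels are uncertain, as described below. For the other genes the changes without that heart were 0.13 for Pgam2, -0.23 for Eno3, -0.09 for Pkm, -0.08 for Ldha and -0.04 for Ldhb. Eno3, the muscle form of enolase (chromosome 11, 70657202 to 70662513), was at 1744, 2089 and 1883 TPM in Paro/Neo hearts and 2531, 2222 and 2255 TPM in vehicle hearts. The treated hearts were all below the vehicle hearts, with a ratio of means of 0.815 and a log2 change of -0.30 ± 0.11 (unadjusted p 0.0249, limma adjusted p 0.56). Eno1, the form of most other tissues (chromosome 4, 150236721 to 150248879), was at 11, 14.1 and 12.1 TPM in Paro/Neo hearts and 16.6, 16.7 and 15.6 TPM in vehicle hearts. It too had no overlap between groups, a ratio of means of 0.762 and the smallest p of the genes described here (log2 change -0.37 ± 0.12, unadjusted p 0.0145, limma adjusted p 0.496). Without Paro/Neo replicate 1 the log2 changes were -0.23 for Eno3 and -0.30 for Eno1, and with the GC correction they were -0.24 and -0.32, none past the threshold.

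Pgam2, the muscle phosphoglycerate mutase, was the exception in direction, at 959, 843 and 974 TPM in Paro/Neo hearts and 749, 982 and 778 TPM in vehicle hearts, with the highest value in a vehicle heart. Pkm, which encodes muscle pyruvate kinase, was at 397, 569 and 578 TPM in Paro/Neo hearts and 674, 592 and 571 TPM in vehicle hearts. The lactate dehydrogenase genes split by role: Ldhb, the heart form that favours pyruvate, was at 1779, 2420 and 2183 TPM in Paro/Neo hearts and 2453, 2478 and 2151 TPM in vehicle hearts. Ldha, the form linked to lactate production and a HIF target, was at 733, 734 and 722 TPM in Paro/Neo hearts and 692, 808 and 822 TPM in vehicle hearts. The 3 treated hearts were almost level for Ldha and lay within the vehicle range. The Ldha to Ldhb ratio was 0.412, 0.303 and 0.331 in Paro/Neo hearts and 0.282, 0.326 and 0.382 in vehicle hearts, so that Ldhb led in all 6. Genes of fast skeletal muscle, a tissue that also holds much Eno3, Pgam2 and Pfkm mRNA, were near 0: 6 of 9 markers, Myh1, Myh2 and Myh4 among them, were below 1 TPM in every heart.

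Gapdh, Pgk1, Pgam1 and Eno1 had the lowest means of the 17 enzyme genes, and all 4 share much sequence with other genes, so that their levels are uncertain. Gapdh, whose enzyme oxidises glyceraldehyde phosphate, was at 2.07, 2.5 and 2.27 TPM in Paro/Neo hearts and 3.27, 2.15 and 3.13 TPM in vehicle hearts, on 22 to 40 reads per library, where Tpi1 at the step before it was at 686 to 980 TPM. Pgk1 was at 27.8, 16.7 and 20.1 TPM in Paro/Neo hearts and 23.6, 22.1 and 19.1 TPM in vehicle hearts. Pgam1 was at 1.96, 5.22 and 3.03 TPM in Paro/Neo hearts and 3.87, 4.86 and 5.66 TPM in vehicle hearts. Neither of these separated the groups.

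Within the set described here, these 4 genes are also the ones whose sequence is most often repeated elsewhere. Of all 76-base stretches, the read length, of the principal transcript in GENCODE M21, 80.2% in Gapdh, 67.5% in Pgk1, 65.2% in Eno1 and 40.6% in Pgam1 also occurred in the transcript of another gene. Over the other 28 members that share was 0 for 19 genes and at most 24.3% for the remaining 9, and 3.47% of the 15665 features with a principal transcript were above 40%. Gapdh stretches recurred in 115 other annotated genes, 111 of them pseudogenes, and those of Pgk1 in 4 pseudogenes. Those of Eno1 recurred in 6 other genes, 5 of them pseudogenes, and those of Pgam1 in 2 pseudogenes. Some genes outside the set were above 40% too and had higher means than these 4. In Paro/Neo and vehicle hearts the red cell marker Hba-a2 (80.8% shared) averaged 247 and 353 TPM, and Hbb-bs (64.2%) 2301 and 2709 TPM. The hypoxia target Trf (78.5%) averaged 35 and 38.2 TPM. Hba-a1, Hbb-bt and Mif were also above 40% with higher means. Mif shared stretches with 3 pseudogenes. Hba-a1, Hba-a2, Hbb-bs, Hbb-bt and Trf each shared stretches with 1 other gene, a coding one, and with 0 pseudogenes. Whether the other gene overlaps Trf in the genome was not checked. Hba-a1 and Hba-a2 had equal inferred reads in each heart. How reads with more than 1 match were counted is not given in the sources used here, and the part of repeated sequence in the levels of the 4 genes was not tested. The stretch of the Gapdh coding sequence that recurs most often is shown as an example of repeated sequence. It lies in exon 4 of 7, at chr6:125162876-125162951 on the minus strand of GRCm38, and occurs base for base in 47 other annotated genes, 45 of them pseudogenes.
Gapdh stretch: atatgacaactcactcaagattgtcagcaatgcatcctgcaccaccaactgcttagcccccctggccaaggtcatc

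**Figure D4:**
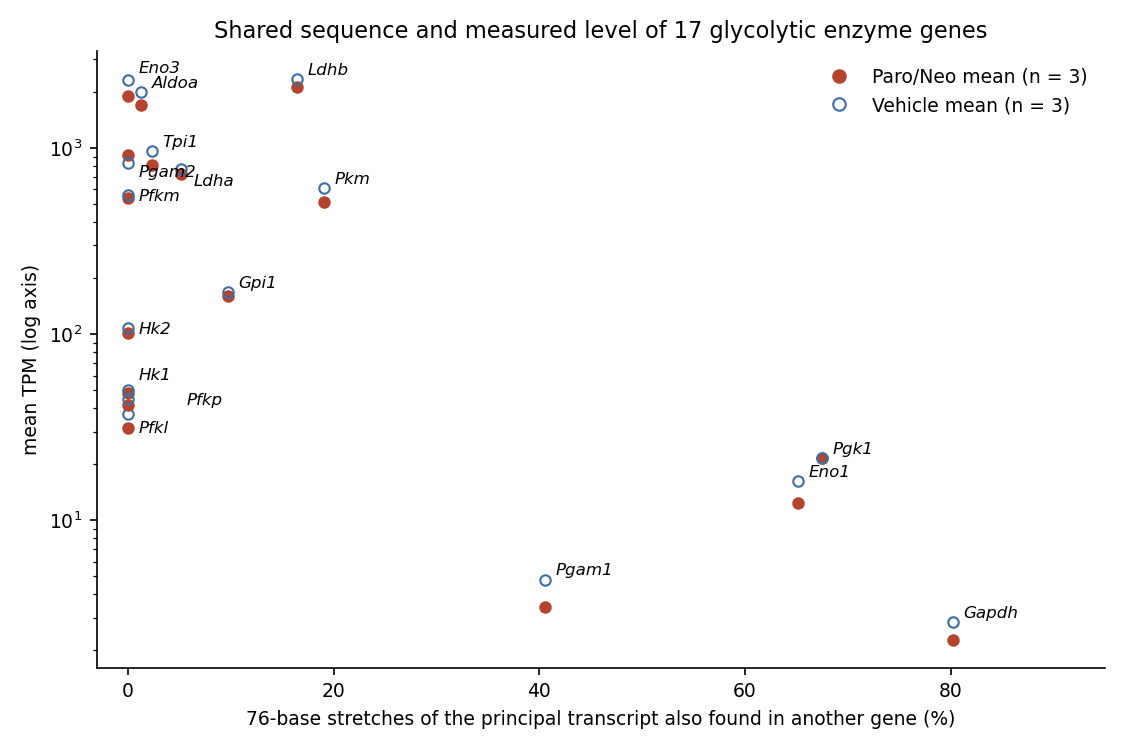
Mean TPM (log axis) of 17 glycolytic enzyme genes in Paro/Neo (filled) and vehicle (open) hearts against the percentage of 76-base stretches of the principal transcript that also occur in another gene. Pgam1, Eno1, Pgk1 and Gapdh, at 40.6% to 80.2%, are the 4 genes with the lowest levels.

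Ratios between forms that include Eno1 or Pgam1 carry the same limit. The Eno1 to Eno3 ratio was 0.00631, 0.00677 and 0.00642 in Paro/Neo hearts and 0.00655, 0.0075 and 0.00691 in vehicle hearts. It barely varied and the groups overlapped, since both forms had lower values in treated hearts. The Pgam1 to Pgam2 ratio was 0.00204, 0.0062 and 0.00312 in Paro/Neo hearts and 0.00516, 0.00495 and 0.00727 in vehicle hearts. Summed over the 17 enzymes of the pathway, the PFKFB genes aside, mRNA amounted to 8317, 10530 and 10230 TPM in Paro/Neo hearts and 11089, 11131 and 10513 TPM in vehicle hearts. The groups overlapped narrowly, at a mean of 9692 ± 1201 TPM in Paro/Neo and 10911 ± 345 TPM in vehicle hearts (SD, n = 3 each), with Paro/Neo replicate 1 the lowest. Cardiomyocyte markers, 8 genes in all, summed to 125420 TPM in that heart, against 154225 and 151855 TPM in Paro/Neo replicates 2 and 3 and 131256 to 140296 TPM in vehicle hearts. The markers were split: Paro/Neo replicate 1 was the lowest heart for Myh6, Actc1, Tnni3, Myl2 and Ryr2 and the highest for Myl3 and Pln. Of 5 atrial markers, that heart was the highest for Myl7 (221 against 25.7 to 125 TPM), Myl4 and Sln. It was the lowest for Nppa, at 240 TPM, and Bmp10 was below 1 TPM in every heart. The part of atrial tissue in these values was not tested.

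**Figure D5:**
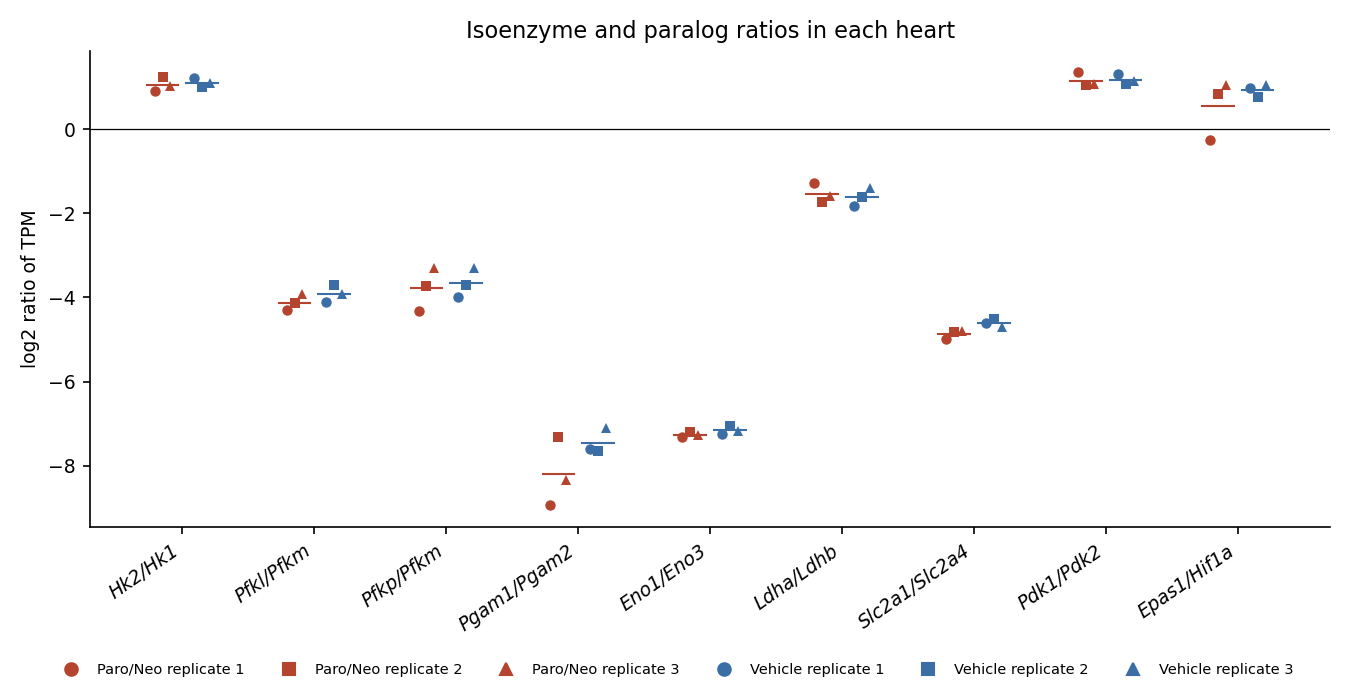
The log2 ratio of TPM between paired forms of an enzyme, transporter or factor in each heart, Paro/Neo in red and vehicle in blue, with a line at each group mean (n = 3 each). The groups are separate only for Slc2a1/Slc2a4, and Paro/Neo replicate 1 is the low point for Epas1/Hif1a.

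The kinases that switch off pyruvate dehydrogenase had positive fitted changes. Pdk2, a widely expressed form (chromosome 11, 95026258 to 95041354), was at 107, 113 and 125 TPM in Paro/Neo hearts and 93, 106 and 86.6 TPM in vehicle hearts. All treated hearts were above all vehicle hearts, the lowest treated one only just, with a ratio of means of 1.21 and a log2 change of 0.27 ± 0.11 (unadjusted p 0.0422, limma adjusted p 0.633). Without Paro/Neo replicate 1 the log2 change was 0.32 ± 0.11, and with the GC correction it was 0.33 ± 0.09, with adjusted p of 0.549 and 0.305. Pdk1, the HIF-responsive form, was at 271, 231 and 262 TPM in Paro/Neo hearts and 232, 223 and 192 TPM in vehicle hearts. Paro/Neo replicate 2 lay just below the highest vehicle heart, so the groups overlapped (log2 change 0.24 ± 0.11, limma adjusted p 0.672). The Pdk1 to Pdk2 ratio lay between 2.05 and 2.55 in Paro/Neo hearts and between 2.11 and 2.5 in vehicle hearts.

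Among the regulators of the hypoxia response, Hif1a, the alpha subunit induced in most cells, was at 71.6, 55.5 and 54.5 TPM in Paro/Neo hearts and 50.1, 54.7 and 50 TPM in vehicle hearts. Epas1, which encodes the HIF2 alpha subunit prominent in endothelium, was at 59.7, 99.4 and 114 TPM in Paro/Neo hearts and 99.2, 92.9 and 104 TPM in vehicle hearts. Paro/Neo replicate 1 thus had the highest Hif1a and the lowest Epas1 of the 6 hearts, and an Epas1 to Hif1a ratio of 0.834, where the other treated hearts had 1.79 and 2.09 and the vehicle hearts 1.7 to 2.07. The principal transcript of Hif1a has 41.3% GC and that of Epas1 52.5%. That heart also had the lowest endothelial marker sum, 382 TPM. The part of GC content and of endothelial cells in this ratio was not tested.

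Egln3 and Egln1 encode prolyl hydroxylases that mark HIF alpha subunits, and Egln3 is itself a HIF target. Egln3 (chromosome 12, 54178981 to 54203860) was at 68.6, 56.9 and 62.3 TPM in Paro/Neo hearts and 65.4, 110 and 90.6 TPM in vehicle hearts. The treated hearts lay close together at the low end, but vehicle replicate 1 was among them, so the groups overlapped. The log2 change was -0.47 ± 0.18 (unadjusted p 0.0336, limma adjusted p 0.59), and it ran from -0.67 without vehicle replicate 1 to -0.30 without vehicle replicate 2, the heart at 110 TPM (adjusted p 0.332 and 0.9). Egln1, the main oxygen sensor of the family, was at 252, 212 and 229 TPM in Paro/Neo hearts and 202, 239 and 208 TPM in vehicle hearts. Of the targets, the angiogenic factor gene Vegfa was at 92.2, 73 and 64.8 TPM in Paro/Neo hearts and 58.9, 77.5 and 73.5 TPM in vehicle hearts. Bnip3, a mitophagy receptor gene, was at 264, 246 and 258 TPM in Paro/Neo hearts and 251, 210 and 250 TPM in vehicle hearts. For both targets the differences were within the spread between mice, with limma adjusted p of 0.849 and 0.798.

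The core ACGTG was searched on both strands in the 250 bases before the annotated starts of RefSeq genes (GRCm38.p6). It was present for 18 of the 30 members with a window, and for 23.1% of the 13023 listed features with one. Members with and without the core are found on either side of 0: Pfkfb3 and Pdk2 were higher and Slc2a1 and Egln3 lower in Paro/Neo hearts in fitted value, and all 4 hold it, while Eno1, Eno3, Tpi1 and Pdk1 do not in the windows listed. The 4 windows are printed 5′ to 3′ on the strand of the gene as examples of members that hold the core, a pair with positive and a pair with negative fitted changes, with the core in capitals. The core begins 36 bases before the start in Slc2a1, 60 in Pfkfb3, 126 in Pdk2 and 229 in Egln3. In Pdk2 both strands match in CACGTG. For Pfkfb3 and Pdk2 the window shown is the first listed of 2. The core is in 2 of 2 windows of Pfkfb3 and in 1 of 2 of Pdk2. The windows are at chr4:119108495-119108744 on the plus strand and at chr2:11553930-11554179, chr11:95041372-95041621 and chr12:54203875-54204124 on the minus strand. A match describes these letters and shows no binding.
Slc2a1: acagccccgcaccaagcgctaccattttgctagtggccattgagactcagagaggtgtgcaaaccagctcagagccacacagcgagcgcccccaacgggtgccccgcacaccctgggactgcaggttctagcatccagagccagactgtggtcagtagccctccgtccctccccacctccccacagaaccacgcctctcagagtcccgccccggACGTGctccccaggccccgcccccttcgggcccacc
Pfkfb3: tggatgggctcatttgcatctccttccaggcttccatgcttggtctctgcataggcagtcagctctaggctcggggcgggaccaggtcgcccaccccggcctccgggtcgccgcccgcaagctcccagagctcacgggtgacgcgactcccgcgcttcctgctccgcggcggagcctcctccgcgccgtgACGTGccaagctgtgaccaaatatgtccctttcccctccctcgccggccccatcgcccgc
Pdk2: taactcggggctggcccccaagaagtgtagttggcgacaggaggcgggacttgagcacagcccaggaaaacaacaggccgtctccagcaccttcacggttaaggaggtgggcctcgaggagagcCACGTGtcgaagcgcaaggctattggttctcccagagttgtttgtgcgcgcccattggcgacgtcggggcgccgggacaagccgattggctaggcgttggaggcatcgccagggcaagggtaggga
Egln3: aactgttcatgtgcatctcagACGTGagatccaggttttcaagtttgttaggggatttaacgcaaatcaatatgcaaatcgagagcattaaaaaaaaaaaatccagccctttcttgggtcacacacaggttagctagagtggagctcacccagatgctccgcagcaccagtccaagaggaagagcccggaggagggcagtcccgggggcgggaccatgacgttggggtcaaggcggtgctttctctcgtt

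A further 93 genes of the same pathways were in the table, and 86 of them were tested. Again 0 passed by limma, with 36 fitted changes positive and 50 negative and a median log2 change of -0.04. At an unadjusted p under 0.05 there were 3 genes by limma, where 7.61% of all tested genes reached that level. By group, positive and negative fitted changes numbered 7 and 6 for other glycolytic genes, 6 and 6 for pyruvate dehydrogenase and pyruvate entry, 5 and 4 for transport, 4 and 9 for glycogen, 4 and 7 for hypoxia regulators and 12 and 18 for hypoxia targets. Pfkfb4 and Gys1 count in a pair of these groups each.

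The 7 of these genes described next missed the threshold too. Lower fitted values were found for Cox4i2, a hypoxia-responsive subunit of cytochrome oxidase (16.3, 18.1 and 22.3 TPM in Paro/Neo hearts and 21.7, 30.3 and 23.5 TPM in vehicle hearts), and for Tbc1d4, which holds GLUT4 inside the cell until insulin acts (20.6, 30.3 and 33.1 TPM in Paro/Neo hearts and 37.5, 33.9 and 38.7 TPM in vehicle hearts). Of the 7 genes, only Tbc1d4 and Tceb2, given below, separated the groups, as 14.3% of all tested genes did in either direction. The kinase gene Pdk3 averaged 2.73 ± 0.623 TPM in Paro/Neo and 3.7 ± 0.314 TPM in vehicle hearts, and Phkg1, a subunit of phosphorylase kinase, 20.8 ± 2.62 and 26.5 ± 4.85 TPM in Paro/Neo and vehicle hearts (SD, n = 3 each). The glycogen phosphorylase gene Pygb averaged 391 ± 73.4 TPM in Paro/Neo and 473 ± 48.6 TPM in vehicle hearts, and Tceb2, a subunit of the VHL complex, 248 ± 8.29 and 278 ± 11.9 TPM in Paro/Neo and vehicle hearts. Txnip, an inhibitor of glucose uptake, was the only higher one of the 7, at 576, 612 and 595 TPM in Paro/Neo hearts and 647, 185 and 283 TPM in vehicle hearts (log2 change 0.88 ± 0.38, limma adjusted p 0.651). Its highest value was in a vehicle heart, and the treated hearts were almost level.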

How the data were processed

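The study measured mRNA by sequencing in ventricles of 6 mice. The authors deposited 1 table of TPM values, per the file headers. The submitters' processing notes name mm10 and, without roles, STAR 2.5.3a, FastQC 0.11.5, Subread with featureCounts, and edgeR. The sources used here give neither the annotation nor how reads with several matches were counted. TPM fixes the total, so a rise in abundant genes lowers the rest. Sample titles gave the groups and replicate numbers.

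From this table, log2(TPM + 1) of the 12409 genes that reached 1 TPM in 3 libraries or more was fitted with limma 3.58.1 in R 4.3.3 (intensity trend, 4.03 prior degrees of freedom), Paro/Neo over vehicle. Tests were two-sided, adjusted over all genes by Benjamini-Hochberg, and the script was tested on simulated data. The scale understates changes of low genes. Reads were inferred from ratios of low TPM values (14330 of 14330 features above 0 in every library were whole within 0.001 of a read) and are lower estimates. GC content and shared 76-base stretches were computed from principal transcripts of GENCODE M21 on GRCm38, which is mm10, on the transcript strand. Promoter sequences are those of RefSeq, GRCm38.p6. P-values set the difference between groups against the spread between these mice, moderated across genes.

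Members and gene lists were chosen with earlier results of these data known. Every member is named. Of the further pathway genes, the rule names those past the threshold and the 8 with the smallest p, of which 7 are given and the other is not reported here, and Pdk4 and Angptl4 were chosen after their values were seen. Alternatives were a pseudocount of 0.1, no filter, a mean of at least 5 TPM, median-of-ratios scaling, the replicate number as a block, array weights, each library left out and, chosen after seeing the data, a GC correction (lowess span 0.5) over the 11334 tested genes with a GC value (91.34%).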

Additional observations from a re-analysis of the deposited data

How the results depend on the processing

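By limma, 0 of the 32 members and 0 of the further pathway genes passed the threshold under any alternative run, and 20 of 31 members kept the sign of their change throughout. The members' median log2 change was 0.01 with array weights, -0.12 without a filter and between -0.18 and 0.02 when each library was left out. With array weights 6 changes had the opposite sign: Hk1 0.06, Hk2 0.08, Gpi1 0.01, Pfkm 0.06, Pfkp 0.09 and Epas1 0.01. With the GC correction Slc16a1 was at -0.0015 and Pgk1 at 0.01. When each library was left out in turn, changes ran from -0.24 to 0.02 for Slc2a4, -0.26 to 0.13 for Hk1, -0.30 to 0.15 for Hk2, -0.13 to 0.03 for Gpi1, -0.18 to 0.09 for Pfkm, -0.48 to 0.23 for Pfkp, -0.22 to 0.05 for Pfkfb1, -0.35 to 0.11 for Epas1, -0.22 to 0.13 for Pgk1, -0.04 to 0.18 for Slc16a1 and -0.01 to 0.24 for Vegfa. The cause of these shifts was not tested. Over all genes, 15 were called higher and 2 lower. Without a filter the calls were 5 higher and 1 lower, under the stricter filter 1 lower, with array weights 4 lower, with the GC correction 24 higher, and with a library left out 4 to 23 higher and 0 to 4 lower. The replicate block gave 25 higher genes and changed no call among the members. By the replicate numbers in the titles, same-numbered libraries did not deviate together (correlations of -0.0528, -0.0356 and -0.122). By the same numbers, 0 of 6 libraries matched best with its own number, so these numbers are not taken as pairs. The submitters' column headers number the treated libraries 2, 3 and 4 and the vehicle libraries 1, 2 and 3. Pairs by the header numbers were not checked. Depth limits Slc16a3, Gapdh and Pgam1, with 8 to 64 reads per library.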

Other observations

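Some genes known to respond to fatty acids or glucose in the heart varied widely among the vehicle hearts. Pdk4, a pyruvate dehydrogenase kinase gene, was at 168, 167 and 169 TPM in Paro/Neo hearts and 344, 183 and 137 TPM in vehicle hearts. Angptl4, which encodes an inhibitor of lipoprotein lipase, was at 8.9, 8.64 and 10.6 TPM in Paro/Neo hearts and 27.3, 2.84 and 2.89 TPM in vehicle hearts. Vehicle replicate 1 was the highest of the 6 hearts for Pdk4 and Angptl4, as it was for Txnip, and the treated hearts lay within the vehicle range for all 3 genes. Limma adjusted p was 0.814 for Pdk4 and 0.871 for Angptl4. These genes were chosen after their values were seen, and the labels used here do not give feeding state or time of collection.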
